A study of Mus musculus with 54 samples.

Results

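The first day after pup removal was compared with established lactation in the mouse mammary gland. The comparison set the 3 arrays of involution day 1 against the 3 arrays of lactation day 7, that is 6 of the 54 arrays of a developmental series with 18 time points. Each array held RNA from 1 inguinal (the 4th) gland of 1 mouse, and the lymph node had been taken out. Mice were mated at 12 weeks, and the involution mice lost their pups after 7 days of lactation (forced weaning), so both groups had lactated for the same time and differed in the 1 day without suckling. The strain was not given in the labels used here. No genotype or drug was varied. Values are array signals on a linear scale. A log2 difference is involution day 1 minus lactation day 7, given ± the standard error that limma estimated (n = 3 mice in each group). Unless a fit on the 6 arrays is named, that error pools a gene's spread over all 18 time points. It is then not the spread of these 6 mice alone. A gene was called, and is said to have risen or fallen, at an adjusted p under 0.05 over the 7311 genes tested.

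When suckling stops, milk fills the alveoli, and stretch together with the loss of the suckling hormones starts the return of the gland to its resting state. In mice the early phase can be reversed if the pups are returned, and signalling by cytokines of the interleukin 6 family through the transcription factor STAT3 is a known part of it. In lactation the alveolar cell makes milk protein, fat and lactose at a high rate under prolactin and the transcription factor STAT5, with glucose and amino acids as its main inputs. RNA was read from whole glands, so fewer cells of a type and less RNA per cell cannot be told apart.

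Across genes, arrays of the same group correlated more closely (r of 0.938 to 0.957) than arrays of different groups (0.840 to 0.882). Involution day 1 mouse A had the lowest median signal of the 6 arrays (35.2, the others 38.5 to 41.2) and the largest share of probe sets under the floor of 9.4 (26.5%, the others 20.8% to 23.4%). It also had the highest ratio of the 3' to the 5' control probe sets, which reads RNA integrity, with 2.47 for beta-actin (the others 1.58 to 2.14) and 3.5 for Gapdh (the others 1.15 to 2.29). Lactation day 7 mouse A stood apart from mice B and C for single genes. Among all genes given by the naming rule, its highest ratios to the mean of mice B and C were 10.8 for Sgk1, 6.8 for Mnt, 6.29 for Saa2, 5.97 for Mt2, 5.42 for Cebpd, 4.88 for Erbb3 and 4.88 for Igfbp3. Over all genes the 3 lactation mice differed less among themselves: 8.25% of genes lay over 2-fold from the mean of the other mice in mouse A, 6.41% in mouse B and 7.39% in mouse C. The part of these differences in the results was not tested. For genes whose change is printed, values without 1 array are given where the call changed or a called log2 difference moved by over 1.5-fold. They are also given where the count of rises or falls in a list (2 or more) moved by over 1.5 times. Counts from other settings are given likewise, where a covariate means that an array's control ratio or its summed muscle marker signal was added to the fit.

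Within 1 day of weaning, 1969 genes (26.9%) were called, 1114 of them higher (15.2%) and 855 lower (11.7%), and the median log2 difference of all genes was -0.01. Changes over 2-fold numbered 630 up and 464 down, and over 8-fold 34 up and 13 down. For 32 of the genes that rose all lactation arrays were at the floor, and for 14 of those that fell all involution arrays were. The 3 + 3 arrays did not overlap for 3011 genes (41.2%), higher in 1550 (21.2%) and lower in 1461 (20.0%), a wider set than the calls. For scale, 213 genes (2.91%) were called between lactation days 3 and 7, a comparison that shares the lactation day 7 arrays. Leaving out involution day 1 mouse A gave 1369 calls, of which 1319 were among the 1969, and leaving out any of the other 5 arrays gave 1563 to 1820.

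**Figure D1:**
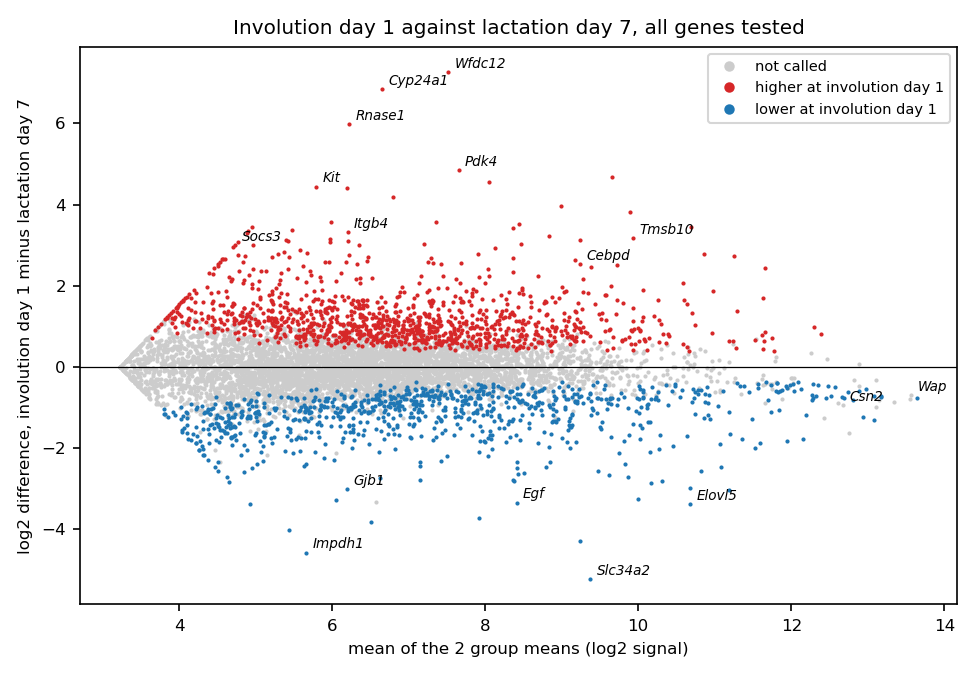
Each point is 1 of the 7311 genes tested. The x axis gives the mean of the lactation day 7 and involution day 1 group means in log2 signal and the y axis the log2 difference, with 1114 called rises in red, 855 called falls in blue and genes not called in grey. Wfdc12, Cyp24a1 and Rnase1 lie above 5.9, Slc34a2 lies at -5.22, and Wap, which was not called, lies at the right edge.

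The kinds of gene moved in different proportions. Of 192 adhesion and cytoskeleton genes 57 rose and 15 fell (37.5% called, median 0.29), and of 291 genes of signals, cell death and proteolysis 81 rose and 22 fell (35.4%, median 0.11). Of 409 metabolic and transport genes 44 rose and 113 fell (38.4%, median -0.29), and of 96 genes of milk, secretion and ribosomes 3 rose and 36 fell (40.6%, median -0.48). Of 260 transcription factors 43 rose and 26 fell (26.5%, median -0.01), a share near that of all genes. Of 291 kinases, phosphatases and growth factors 38 rose and 27 fell (22.3%, median 0.04). No difference of these shares from the 26.9% of all genes was tested. These lists were written with earlier results of these data known, so their counts describe the groups and are not independent evidence.

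**Figure D2:**
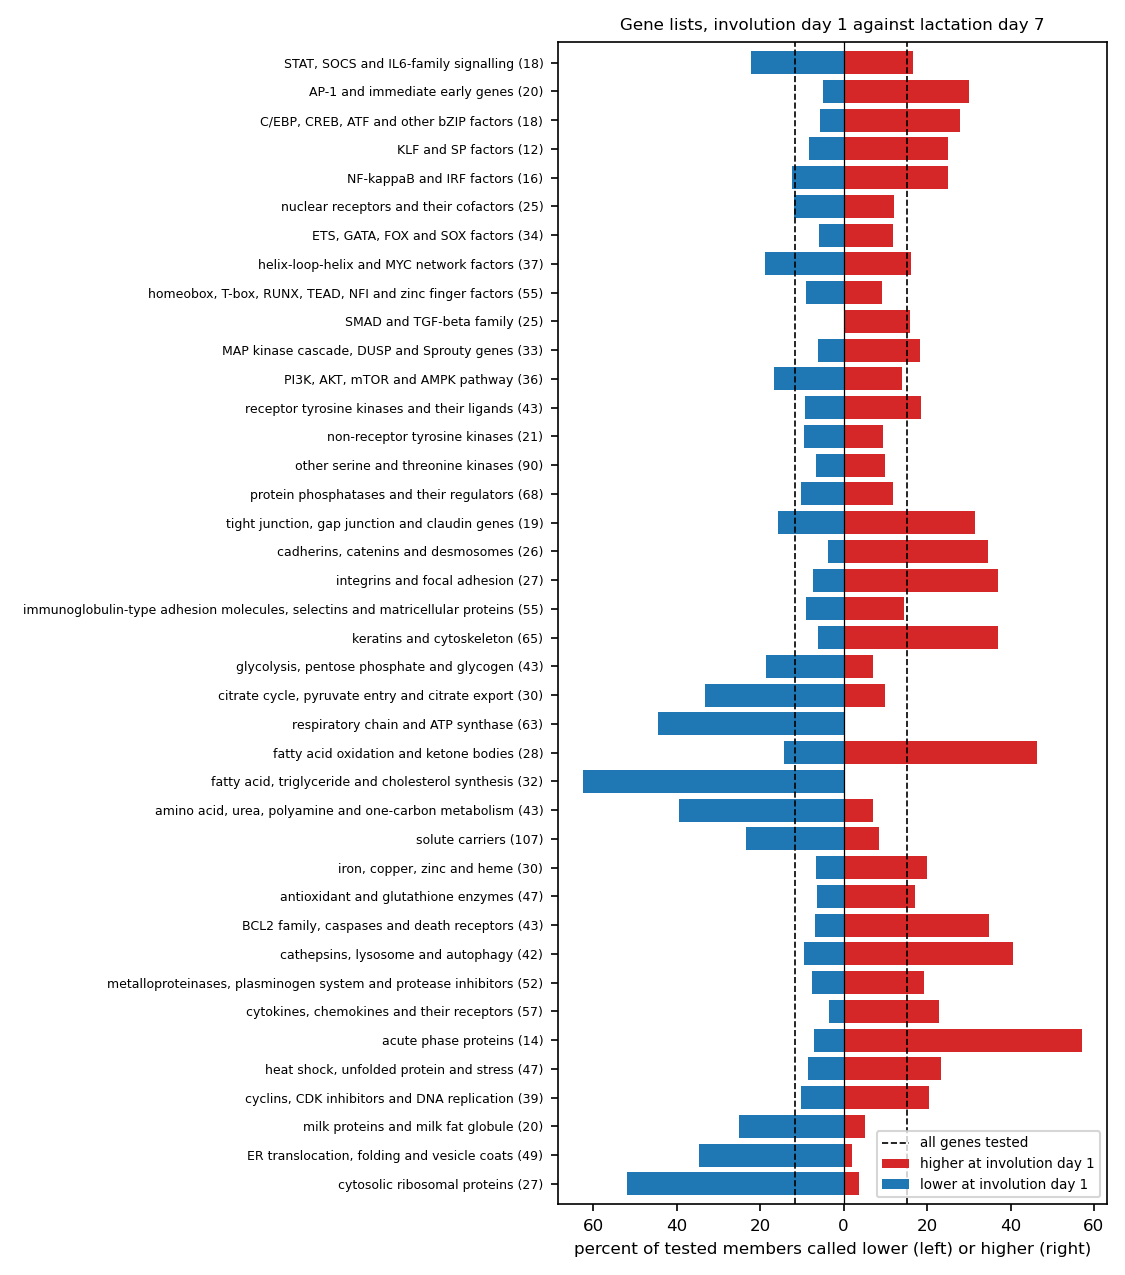
Bars give the percent of the tested members of each of 40 gene lists that were called higher (right, red) or lower (left, blue) at involution day 1; the number tested is in parentheses. Dashed lines mark the shares among all genes, 15.2% higher and 11.7% lower. Respiratory chain and lipid synthesis genes have no bar to the right, and the acute phase list has the longest one.

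Several of the largest rises started from almost no signal. Wfdc12, a small secreted protein of the whey acidic protein family, read 17.2, 14.5 and 13.1 at lactation day 7 and 2002, 2375 and 2468 at involution day 1. Its groups lay far apart, a 153-fold rise (7.26 ± 0.97, adjusted p = 1.16e-07). Cyp24a1, the enzyme that inactivates vitamin D, was at the floor of 9.4 in all 3 lactation mice and read 1506, 744 and 1141 at involution day 1, at least 115-fold higher (adjusted p = 1.2e-23). Rnase1, a secreted ribonuclease, was likewise at the floor in all lactation mice and read 562, 640.5 and 589, with the 3 involution mice close together (at least 63.5-fold, adjusted p = 7.17e-19). In a fit on the 6 arrays alone the adjusted p was 0.00014 for Cyp24a1 and 3.6e-05 for Rnase1. A group wholly at the floor adds no spread to the standard error in either fit. Slpi, a secreted inhibitor of leukocyte proteases, read 51.2, 51 and 62.4 at lactation day 7 and 1051, 2027 and 1014 at involution day 1, with mouse B the highest (4.56 ± 0.38, adjusted p = 6.94e-13). Ephx1, a detoxifying epoxide hydrolase, rose 21.3-fold (4.41 ± 0.32, adjusted p = 2.08e-14). Lrg1, a secreted leucine-rich glycoprotein, rose 15.6-fold (3.97 ± 0.47, adjusted p = 7.88e-09). Other probe sets of some of these genes read differently: a second one for Wfdc12 had means of 21.7 and 24.9 (0.19), a second one for Cyp24a1 37.3 and 22.6 (-0.73, adjusted p = 0.0208), and 3 more for Slpi gave 2.81, 0.03 and -0.40. Plscr2, a phospholipid scramblase, and Cyp2d10, a cytochrome P450, were at the floor in all lactation mice as well and were at least 9.88-fold (adjusted p = 9.95e-08) and at least 10.9-fold (adjusted p = 3.88e-11) higher. Over all called genes given by the naming rule, of 65 further probe sets 52 had the same sign as the one used and 13 the other. Of these, 36 were called in the same direction and 1 in the other. Cyp2d10 differed by 2.73 (log2) without involution day 1 mouse A.

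In the interleukin 6 and STAT pathways Osmr, Socs3 and Stat3 rose, while Stat5a, Stat5b, Socs1 and Socs2 fell. Osmr, the receptor chain for oncostatin M, read 29.7, 18 and 17.7 at lactation day 7 and 246, 182 and 146 at involution day 1. All involution mice lay above all lactation mice (3.14 ± 0.32, adjusted p = 1.66e-10). Socs3, which STAT3 induces and which dampens the same receptors, was at the floor in the 3 lactation mice and read 60.4, 96.7 and 73.8 at involution day 1, at least 8.04-fold higher (adjusted p = 1.75e-09). Stat3 itself read 431, 368 and 267 at lactation day 7 and 614, 741 and 699.7 at involution day 1, a smaller step without overlap (0.97 ± 0.24, adjusted p = 0.0021). On the other side, Stat5b read 84.6, 135 and 134 at lactation day 7 and 11.4, 13.3 and 63 at involution day 1, with involution mouse C the closest to the lactation mice (-2.44 ± 0.54, adjusted p = 0.000598). Stat5a read 595, 419.6 and 566 at lactation day 7 and 346, 342 and 364 at involution day 1 (-0.57 ± 0.17, adjusted p = 0.0107). Socs2, a STAT5 target that restrains growth hormone signalling, read 101, 59.9 and 105 at lactation day 7 and 42.4, 48.5 and 38.9 at involution day 1, a 2-fold fall (adjusted p = 0.0316). Socs1 fell as well (-1.93 ± 0.45, adjusted p = 0.000908). Cish, a STAT5 target as well, was not called (-0.85 ± 0.35, adjusted p = 0.0682). Its groups overlapped: the signals were 349.7, 108 and 148 at lactation day 7 and 77.6, 121 and 102 at involution day 1. In all, 3 of 18 rose and 4 fell (median -0.12), 38.9% called against 26.9% of all genes. Stat5a was no longer called without lactation day 7 mouse A or C (adjusted p = 0.0674 and 0.0522). Socs2 was no longer called without involution day 1 mouse A or C or lactation day 7 mouse A or C (adjusted p = 0.0814, 0.0909, 0.108 and 0.122). Cish passed the test without lactation day 7 mouse B (adjusted p = 0.0173). Stat5b differed by -3.23 (log2) without involution day 1 mouse C. Among STAT, SOCS and IL6-family signalling, the 4 falls were 2 without lactation day 7 mouse A or C.

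The 300 bases around the start of 4 risers (250 before and 50 after the start, RefSeq, GRCm38.p6) are shown because each holds a motif of a factor family discussed here. For Socs3 (chr11:117969317-117969616, minus strand) and Rnase1 (chr14:51146718-51147017, minus strand) capitals mark the STAT motif TTCNNNGAA. For Cldn4 (chr5:134946885-134947184, minus strand) and Osmr (chr15:6874264-6874563, minus strand) they mark the AP-1 motif TGANTCA.
Socs3: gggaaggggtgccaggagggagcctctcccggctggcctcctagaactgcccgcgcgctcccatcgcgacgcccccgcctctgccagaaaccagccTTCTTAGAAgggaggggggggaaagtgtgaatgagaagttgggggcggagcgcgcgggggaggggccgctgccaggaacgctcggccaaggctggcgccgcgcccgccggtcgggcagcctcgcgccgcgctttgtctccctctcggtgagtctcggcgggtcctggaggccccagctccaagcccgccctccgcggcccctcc
Rnase1: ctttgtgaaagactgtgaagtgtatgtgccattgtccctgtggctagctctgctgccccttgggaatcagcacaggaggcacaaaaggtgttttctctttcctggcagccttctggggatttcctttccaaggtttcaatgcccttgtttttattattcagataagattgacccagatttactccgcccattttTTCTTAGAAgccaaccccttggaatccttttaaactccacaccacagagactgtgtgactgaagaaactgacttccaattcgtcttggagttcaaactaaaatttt
Cldn4: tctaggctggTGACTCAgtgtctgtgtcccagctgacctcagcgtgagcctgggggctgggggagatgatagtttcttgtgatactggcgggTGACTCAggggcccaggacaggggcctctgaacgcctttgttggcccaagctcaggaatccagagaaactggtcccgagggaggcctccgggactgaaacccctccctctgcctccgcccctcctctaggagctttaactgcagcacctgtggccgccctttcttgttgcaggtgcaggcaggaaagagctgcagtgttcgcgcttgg
Osmr: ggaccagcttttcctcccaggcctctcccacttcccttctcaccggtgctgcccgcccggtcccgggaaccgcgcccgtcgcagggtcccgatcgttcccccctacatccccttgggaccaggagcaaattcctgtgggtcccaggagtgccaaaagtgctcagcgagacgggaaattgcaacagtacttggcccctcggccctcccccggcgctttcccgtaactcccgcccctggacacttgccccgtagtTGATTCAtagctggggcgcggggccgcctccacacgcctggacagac
The Socs3 match began at position -154 and the Rnase1 match at -56 from the start, and both read TTCTTAGAA. Cldn4 had matches at -240 and -158, and Osmr had 1 at 3. A match is a description of the letters and not a shown binding site.

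Over both strands, the STAT motif was found in 8.3% of 32851 mouse promoter windows. By gene, where a match in any window of the gene counts, it was found in 7.21% of 832 genes that rose. It was found in 8.71% of 597 genes that fell and in 8.45% of 3729 genes not called. The first share is per window and the others are per gene, and a gene can have several windows, so the first cannot be set against the others. AP-1 stood at 7.81% of all windows, 7.45% of risers, 7.2% of fallers and 7.0% of genes not called. The E-box CACGTG stood at 7.15%, 13.6%, 10.7% and 12.0% in the same order, and the CRE motif TGACGTCA at 1.79%, 3.49%, 3.35% and 3.24%. Each motif was counted on its own, and matches of different motifs can share bases at their ends. For each motif the share among genes that rose was within 2 percentage points of the share among genes not called, and no test was run.

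Among other transcription factors the rises were spread over many families. Cebpd, a C/EBP factor of the acute phase response, read 773, 165 and 123 at lactation day 7 and 1389, 1323 and 1671 at involution day 1. Lactation mouse A, already high, still lay below every involution mouse (2.54 ± 0.35, adjusted p = 3.12e-07). Cebpb, its close relative, did not follow on day 1, with 427, 531 and 318 at lactation day 7 and 467, 376 and 503 at involution day 1 and overlapping groups (0.10 ± 0.28, adjusted p = 0.844). Of the immediate early genes, 6 of 20 rose and 1 fell (median 0.35): Btg1, which holds back cell division, rose 3.4-fold (1.77 ± 0.23, adjusted p = 5.71e-08), and Ier3, a stress response gene, rose 2.66-fold (1.41 ± 0.36, adjusted p = 0.00228). Jun rose by less (0.70 ± 0.26, adjusted p = 0.037), while Fos (1.18 ± 0.52, adjusted p = 0.0898), Junb (0.13 ± 0.37, adjusted p = 0.84) and Myc (0.77 ± 0.34, adjusted p = 0.0898) were not called. Of the C/EBP, CREB and ATF group 5 of 18 rose and 1 fell (median 0.19), among them Nfe2l2, the main regulator of antioxidant genes (1.19 ± 0.21, adjusted p = 3.32e-05), Ddit3, the stress factor CHOP (1.47 ± 0.34, adjusted p = 0.000869), and Atf2 (1.01 ± 0.28, adjusted p = 0.00614). Jun was no longer called without involution day 1 mouse A or C or lactation day 7 mouse A, B or C (adjusted p = 0.0922, 0.196, 0.0705, 0.0901 and 0.0716). Atf2 was no longer called without lactation day 7 mouse C (adjusted p = 0.0509). Myc passed the test without involution day 1 mouse B or lactation day 7 mouse A (adjusted p = 0.00934 and 0.0326). Cebpd differed by 3.35 (log2) without lactation day 7 mouse A. Among AP-1 and immediate early genes, the 6 rises were 3 without involution day 1 mouse C or lactation day 7 mouse B and 3 in the fit on the 6 arrays alone. Among C/EBP, CREB, ATF and other bZIP factors, the 5 rises were 3 without lactation day 7 mouse C.

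Tsc22d1, a leucine zipper protein induced by TGF-beta, read 115, 127 and 70.1 at lactation day 7 and 1319, 951 and 1003 at involution day 1, with no overlap (3.42 ± 0.24, adjusted p = 4.51e-15). Nfe2l3, a bZIP factor related to Nfe2l2, was at the floor in all lactation mice and read 104, 85.2 and 98, at least 10.1-fold higher (adjusted p = 2.75e-10). Bhlhe40, a repressor tied to the clock and to low oxygen, read 69.7, 73.9 and 118 at lactation day 7 and 739.6, 326 and 506 at involution day 1. It rose 5.85-fold with no overlap (2.55 ± 0.33, adjusted p = 8.48e-08). Klf6 and Klf10, zinc finger factors that can hold back cell growth, rose 4.22-fold (2.08 ± 0.31, adjusted p = 9.61e-07) and 3.14-fold (1.65 ± 0.25, adjusted p = 1.47e-06). Elf3, an epithelial ETS factor, rose 4.52-fold (2.18 ± 0.44, adjusted p = 0.000179), Ahr, the receptor for aromatic ligands, 4.81-fold (2.27 ± 0.34, adjusted p = 1.33e-06), and Tgif1, a corepressor of SMAD and retinoid signalling, 3.89-fold (1.96 ± 0.29, adjusted p = 1.4e-06).

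The factors that fell included regulators of lipid synthesis, glucocorticoid response and the clock. Srebf1, which drives fatty acid synthesis genes, read 949, 2349.7 and 2563 at lactation day 7 and 367, 412 and 470 at involution day 1, with lactation mouse A the nearest to the involution mice (-2.11 ± 0.29, adjusted p = 2.43e-07). Nr3c1, the glucocorticoid receptor, read 47.1, 46.9 and 46.8 at lactation day 7 and 16.6, 13.3 and 12.9 at involution day 1, with tight groups at a dim level (-1.73 ± 0.43, adjusted p = 0.00204). Arntl, the clock factor BMAL1, fell (-1.57 ± 0.36, adjusted p = 0.0009), and so did Hes5, a Notch target (-1.82 ± 0.44, adjusted p = 0.00134), and Rora, a nuclear receptor of the clock loop (-1.07 ± 0.29, adjusted p = 0.00474). Elf5, the factor of the secretory epithelium, read 1896, 1679.5 and 1739 at lactation day 7 and 993, 1072 and 1355 at involution day 1. Its groups did not overlap, but it was not called (-0.65 ± 0.29, adjusted p = 0.0954). By family, rises and falls were 3 and 1 of 12 (median 0.50) for KLF and SP factors, 4 and 2 of 16 (median 0.15) for NF-kappaB and IRF factors, 3 and 3 of 25 (median -0.32) for nuclear receptors and their cofactors, 4 and 2 of 34 (median -0.33) for ETS, GATA, FOX and SOX factors, 6 and 7 of 37 (median -0.18) for helix-loop-helix and MYC network factors and 5 and 5 of 55 (median 0.00) for homeobox and zinc finger factors. In the same order 33.3%, 37.5%, 24.0%, 17.6%, 35.1% and 18.2% of these families were called, against 26.9% of all genes. Rela, a subunit of NF-kappaB, rose (0.96 ± 0.27, adjusted p = 0.00659) while Nfkbia, its inhibitor and target, fell (-1.34 ± 0.25, adjusted p = 4.45e-05). Among NF-kappaB and IRF factors, the 4 rises were 2 in the fit on the 6 arrays alone and the 2 falls were 1 without involution day 1 mouse A or C or lactation day 7 mouse B or C. Those 2 falls were 0 in the fit on the 6 arrays alone. They were 1 after median scaling, without the filter or with the Gapdh or muscle covariate. Among nuclear receptors and their cofactors, the 3 rises were 0 without involution day 1 mouse B, 1 without involution day 1 mouse A or C or lactation day 7 mouse C, 0 in the fit on the 6 arrays alone and 1 with the muscle covariate and the 3 falls were 5 with array weights. Among ETS, GATA, FOX and SOX factors, the 2 falls were 0 without involution day 1 mouse A or lactation day 7 mouse B or C and 1 without involution day 1 mouse B or C. They were 1 without the filter or with the muscle covariate. Among helix-loop-helix and MYC network factors, the 6 rises were 3 without lactation day 7 mouse C and the 7 falls were 4 without lactation day 7 mouse C and 2 in the fit on the 6 arrays alone. Among homeobox, T-box, RUNX, TEAD, NFI and zinc finger factors, the 5 falls were 1 in the fit on the 6 arrays alone.

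In the TGF-beta family 4 of 25 rose and 0 fell (median 0.08), so 16.0% were called against 26.9% of all genes. The share that rose was near the 15.2% of all genes. Tgfb3, a TGF-beta ligand known to be made by the involuting alveolus, read 156, 238 and 172 at lactation day 7 and 465, 845 and 827 at involution day 1. Mouse A was the lowest of the involution mice and lay above all lactation mice (1.89 ± 0.26, adjusted p = 2.8e-07). Inhbb, a subunit of activin B, was at the floor in all lactation mice and read 66.6, 47.1 and 58.2 at involution day 1, at least 6.03-fold higher (adjusted p = 6.51e-08). Among SMAD and TGF-beta family, the 4 rises were 2 without involution day 1 mouse A or lactation day 7 mouse A and 2 in the fit on the 6 arrays alone.

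Receptor tyrosine kinases and their ligands split, and 8 of 43 rose and 4 fell (median -0.04), called about as often as all genes (27.9% against 26.9%). Kit, the receptor for stem cell factor, read 10.9, 13.2 and 11.7 at lactation day 7 and 325, 212 and 251 at involution day 1. It was near the floor in every lactation mouse and over 200 in every involution mouse (4.44 ± 0.39, adjusted p = 5.94e-12). Tyro3, a receptor of the family that recognises dying cells, read 52.8, 50.8 and 51 at lactation day 7 and 374, 544 and 369 at involution day 1 (3.03 ± 0.46, adjusted p = 1.75e-06). Erbb3, the kinase-poor partner of the ERBB receptors, read 328, 74.9 and 60.6 at lactation day 7 and 842, 605 and 434 at involution day 1, with lactation mouse A nearer to the involution mice than mice B and C were (2.40 ± 0.36, adjusted p = 1.66e-06). The ligand Egf, abundant in mouse milk, went down, with 1243, 986 and 1045 at lactation day 7 and 91.3, 135 and 99.9 at involution day 1. Every involution mouse lay far below every lactation mouse (-3.34 ± 0.48, adjusted p = 4.77e-07). Angpt1, a ligand of the vessel receptor Tek, fell as well (-2.18 ± 0.40, adjusted p = 4.23e-05). Erbb3 differed by 3.17 (log2) without lactation day 7 mouse A. Among receptor tyrosine kinases and their ligands, the 4 falls were 8 with the higher floor.

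Inside the cell, the PI3K pathway list was mixed: 5 of 36 rose and 6 fell (median -0.03), 30.6% called against 26.9% of all genes. Pik3r1, the regulatory subunit that restrains PI3K when in excess and is a known STAT3 target in the involuting gland, read 73.2, 98.5 and 49.7 at lactation day 7 and 478, 358 and 419 at involution day 1 (2.55 ± 0.31, adjusted p = 2.22e-08). Akt1, the kinase downstream that supports lipid synthesis and survival, read 898, 1138 and 1313 at lactation day 7 and 219, 366 and 358 at involution day 1 (-1.85 ± 0.32, adjusted p = 1.87e-05). Neither gene's groups overlapped, and they moved in opposite directions. Pim1, a survival kinase induced through STAT5, fell (-1.67 ± 0.29, adjusted p = 1.87e-05), and a second probe set gave -3.05. Sgk1, a kinase regulated by glucocorticoids, was not called (-0.68 ± 0.47, adjusted p = 0.302). Its signals were 484, 47.4 and 42.1 at lactation day 7 and 100.3, 57.3 and 40.6 at involution day 1, where lactation mouse A was the highest of the 6. Sgk1 passed the test without lactation day 7 mouse C (adjusted p = 0.0486). Among PI3K, AKT, mTOR and AMPK pathway, the 5 rises were 3 without involution day 1 mouse A or lactation day 7 mouse B or C and 2 in the fit on the 6 arrays alone and the 6 falls were 2 without lactation day 7 mouse A, 3 without involution day 1 mouse A and 2 in the fit on the 6 arrays alone.

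In the MAP kinase list 6 of 33 rose and 2 fell (median -0.14), called about as often as all genes (24.2% against 26.9%). Map4k4, which acts upstream of JNK, rose 2.78-fold (1.47 ± 0.29, adjusted p = 0.000101), and Dusp16, a phosphatase that inactivates JNK, rose 3.08-fold (1.62 ± 0.25, adjusted p = 3.14e-06). Dusp6, which inactivates ERK, rose 2.03-fold (1.02 ± 0.29, adjusted p = 0.00616). Of the non-receptor tyrosine kinases 2 of 21 rose and 2 fell (median -0.11), 19.0% called against 26.9% of all genes. Src read 89.1, 115 and 92.8 at lactation day 7 and 20.8, 54.9 and 29.4 at involution day 1 and fell (-1.61 ± 0.39, adjusted p = 0.00141), as did Tnk2 (-1.79 ± 0.22, adjusted p = 1.53e-08). Of the other serine and threonine kinases 9 of 90 rose and 6 fell (median 0.06), 16.7% called against 26.9% of all genes. Lats2, a kinase of the Hippo pathway, rose (1.09 ± 0.22, adjusted p = 0.00013), and Plk3, a stress kinase, fell (-1.07 ± 0.26, adjusted p = 0.00158). Among protein phosphatases and their regulators 8 of 68 rose and 7 fell (median 0.12), 22.1% called against 26.9% of all genes. Ptpn2, which dephosphorylates JAK and STAT proteins, rose 3.2-fold (1.68 ± 0.32, adjusted p = 9.35e-05). Dusp6 was no longer called without lactation day 7 mouse A (adjusted p = 0.0503). Among MAP kinase cascade, DUSP and Sprouty genes, the 2 falls were 1 without involution day 1 mouse A, B or C or lactation day 7 mouse B or C. They were 1 without the floor or in the fit on the 6 arrays alone. Among non-receptor tyrosine kinases, the 2 rises were 0 without involution day 1 mouse B and 1 without involution day 1 mouse A or C or lactation day 7 mouse A, B or C. They were 1 without the floor, with the higher floor, without the filter, in the fit on the 6 arrays alone or with array weights. Among other serine and threonine kinases, the 9 rises were 4 without involution day 1 mouse A, 5 without involution day 1 mouse C or lactation day 7 mouse B and 5 in the fit on the 6 arrays alone and the 6 falls were 3 without involution day 1 mouse A. Among protein phosphatases and their regulators, the 8 rises were 5 without lactation day 7 mouse A and the 7 falls were 2 without lactation day 7 mouse B, 3 without involution day 1 mouse A or C or lactation day 7 mouse A, 4 without lactation day 7 mouse C and 4 in the fit on the 6 arrays alone.

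**Figure D3:**
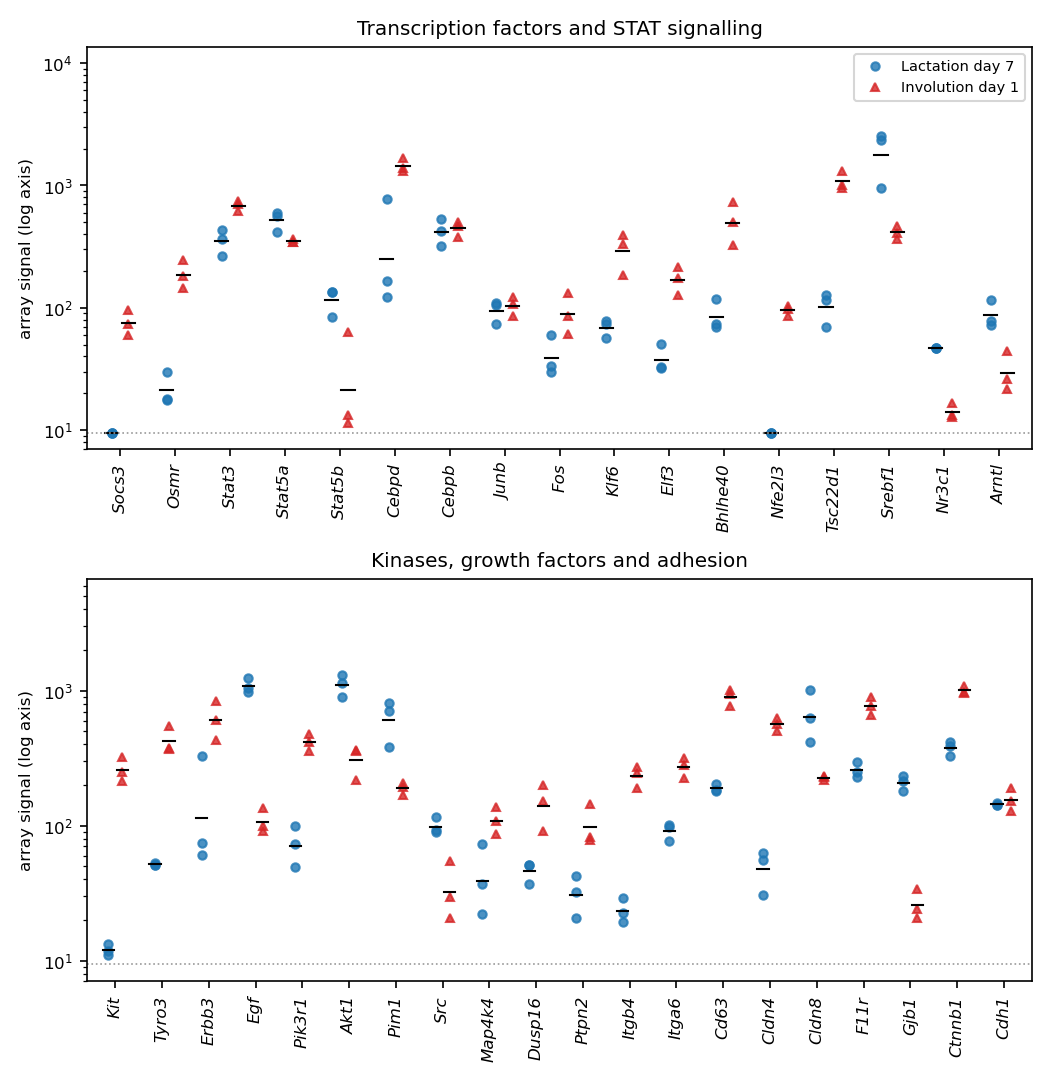
Array signals on a log axis for 17 transcription factor and STAT pathway genes (top) and 20 kinase, growth factor and adhesion genes (bottom), with the 3 lactation day 7 mice as blue circles, the 3 involution day 1 mice as red triangles and the geometric mean of each group as a black line; the dotted line is the floor of 9.4. Kit and Socs3 separate widely, Cebpb, Junb and Cdh1 overlap, and the highest blue circle of Cebpd (773) is lactation day 7 mouse A.

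Integrin genes of the epithelium rose within the day. Itgb4, the beta chain of the hemidesmosome integrin that holds the epithelium to its basement membrane, read 22.5, 29 and 19.2 at lactation day 7 and 191, 244 and 272 at involution day 1. Every involution mouse was above 190 and every lactation mouse below 30 (3.33 ± 0.36, adjusted p = 1.17e-09). Its partner Itga6 read 97.4, 101 and 77 at lactation day 7 and 317, 283 and 225 at involution day 1 (1.58 ± 0.26, adjusted p = 8.08e-06). Itgb1, the common beta chain, rose by less (0.92 ± 0.23, adjusted p = 0.00229), and a second probe set was not called (0.41). The tetraspanins Cd9 and Cd63, membrane organisers that bind integrins, rose 3.97-fold (1.99 ± 0.22, adjusted p = 1.15e-09) and 4.76-fold (2.25 ± 0.23, adjusted p = 1.49e-10), and Cd47, the surface signal against engulfment, rose 4.48-fold (2.16 ± 0.28, adjusted p = 6.16e-08). In the integrin and focal adhesion list 10 of 27 rose and 2 fell (median 0.39). Bcar1, a scaffold that Src phosphorylates, was one of the falls (-1.60 ± 0.39, adjusted p = 0.00187). Lamb3, a chain of the laminin that the same integrin binds, rose 3.35-fold (1.74 ± 0.45, adjusted p = 0.00272). Among integrins and focal adhesion, the 2 falls were 1 without involution day 1 mouse A and 1 in the fit on the 6 arrays alone.

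Tight and gap junction genes moved in both directions. Cldn4, a barrier-forming claudin, read 30.7, 63.1 and 55.4 at lactation day 7 and 563, 625 and 503 at involution day 1. The involution mice lay above all lactation mice by a wide margin (3.56 ± 0.54, adjusted p = 1.71e-06). Cldn3 rose 3.19-fold (1.67 ± 0.30, adjusted p = 3.3e-05) and F11r, the junctional adhesion molecule JAM-A, 3.01-fold (1.59 ± 0.21, adjusted p = 9.78e-08). Cldn8 went the other way, with 1014, 418 and 627 at lactation day 7 and 232, 229 and 218 at involution day 1 and lactation mouse A the highest (-1.51 ± 0.47, adjusted p = 0.013). The gap junction genes split likewise: Gjb1, a connexin of secretory epithelia, read 213, 180.2 and 235 at lactation day 7 and 20.8, 33.7 and 24.2 at involution day 1 (-3.02 ± 0.48, adjusted p = 3.37e-06), and Gjb6, another connexin, fell too (-1.71 ± 0.28, adjusted p = 5.91e-06), while 2 other connexin genes rose. A second probe set of Gjb6 was not called (-0.61). Ocln, a tight junction strand protein, was not called (0.89 ± 0.50, adjusted p = 0.197). In this list 6 of 19 rose and 3 fell (median 0.34). Cldn8 was no longer called without lactation day 7 mouse A (adjusted p = 0.094).

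At adherens junctions and desmosomes 9 of 26 rose and 1 fell (median 0.27). Ctnnb1, beta-catenin, read 415, 387 and 328 at lactation day 7 and 1091, 970.4 and 963 at involution day 1 (1.43 ± 0.21, adjusted p = 7.57e-07), and Ctnna1, alpha-catenin, rose 2.15-fold (1.11 ± 0.18, adjusted p = 5.92e-06). Vcl, vinculin, which links both kinds of adhesion to actin, rose 3.04-fold (1.61 ± 0.24, adjusted p = 1.55e-06), although a second, dim probe set did not (means 19.1 and 18.3). Pkp3, a desmosome plaque protein, rose 4.55-fold (2.18 ± 0.53, adjusted p = 0.00154). Cdh1, E-cadherin, was not among them, with 142, 141 and 148 at lactation day 7 and 129, 189 and 151 at involution day 1 and overlapping groups (0.10 ± 0.25, adjusted p = 0.807). Of the immunoglobulin-type adhesion molecules, selectins and matricellular proteins 8 of 55 rose and 5 fell (median 0.20), 23.6% called against 26.9% of all genes. Among the rises were Ccn2 (2.70 ± 0.55, adjusted p = 0.000169), Ccn1 (1.63 ± 0.31, adjusted p = 8.17e-05) and Postn, a matrix protein (1.39 ± 0.28, adjusted p = 0.000194). Ccn2 differed by 3.42 (log2) without lactation day 7 mouse B. Among immunoglobulin-type adhesion molecules, selectins and matricellular proteins, the 5 falls were 0 without involution day 1 mouse A, 1 without lactation day 7 mouse C, 2 without lactation day 7 mouse B, 3 without lactation day 7 mouse A and 3 after median scaling or with the muscle covariate.

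Keratin and cytoskeleton genes also rose more often than they fell, and 24 of 65 rose and 4 fell (median 0.30). Tmsb10, which binds actin monomers, read 340.1, 353 and 289 at lactation day 7 and 3111, 2670.1 and 3025 at involution day 1. It rose 8.98-fold with no overlap (3.17 ± 0.23, adjusted p = 2.08e-14). Tpm4, a non-muscle tropomyosin, rose 8.16-fold (3.03 ± 0.24, adjusted p = 2.34e-13), and Stmn1, which takes microtubules apart, 7.6-fold (2.93 ± 0.32, adjusted p = 1.12e-09). Krt7, a keratin of simple epithelia, read 26.3, 37.1 and 26.5 at lactation day 7 and 222, 131 and 194 at involution day 1 (2.59 ± 0.46, adjusted p = 2.66e-05), Krt18 rose 3.02-fold (1.59 ± 0.31, adjusted p = 0.000125) and Krt8 1.83-fold (0.87 ± 0.32, adjusted p = 0.0349). In each of Tpm4, Stmn1, Krt7, Krt18 and Krt8 involution mouse A was the highest of the 6 mice. The summed signal of the 9 luminal markers tested ran from 3670 to 3810 in the lactation mice and from 4980 to 6690 in the involution mice, and that of the 6 basal and myoepithelial markers from 1630 to 2000 and from 1960 to 3460, both highest in involution mouse A. Their part in these rises was not tested. Krt8 was no longer called without involution day 1 mouse A or C or lactation day 7 mouse A, B or C (adjusted p = 0.242, 0.0667, 0.0813, 0.051 and 0.0939). Among keratins and cytoskeleton, the 4 falls were 1 without lactation day 7 mouse B, 2 without involution day 1 mouse A or C or lactation day 7 mouse A, 1 with the higher floor and 2 after quantile normalization or after median scaling or without the filter or in the fit on the 6 arrays alone or with the muscle covariate.

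In the fatty acid oxidation list rises outnumbered falls, led by the entry step into mitochondria. Pdk4, the kinase that shuts off pyruvate dehydrogenase, read 40.9, 24.6 and 52.5 at lactation day 7 and 1795, 691 and 1014 at involution day 1. Mouse A was the highest, and the lowest involution mouse was still over 10 times the highest lactation mouse (4.85 ± 0.48, adjusted p = 1.01e-10). Cpt1a, the gate for fatty acid entry into mitochondria, read 62.3, 20.3 and 13.6 at lactation day 7 and 566, 479 and 392 at involution day 1, with lactation mouse A above mice B and C (4.20 ± 0.31, adjusted p = 2.08e-14). Of the fatty acid oxidation list 13 of 28 rose and 4 fell (median 0.61), with Acadl (2.31 ± 0.35, adjusted p = 1.68e-06), Eci2 (1.65 ± 0.18, adjusted p = 9.12e-10) and Hadhb (1.18 ± 0.20, adjusted p = 1.74e-05), all enzymes of beta-oxidation, among the rises. Txnip, which limits glucose uptake, rose 3.53-fold (1.82 ± 0.23, adjusted p = 6.15e-08), though a second probe set was not called (means 70.1 and 74.2, 0.08). Cpt1a differed by 4.83 (log2) without lactation day 7 mouse A. Among fatty acid oxidation and ketone bodies, the 4 falls were 2 without involution day 1 mouse A or lactation day 7 mouse B and 2 after median scaling.

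Several genes on the route from glucose to fat fell. Pdhb, a subunit of pyruvate dehydrogenase, read 2244, 2451 and 2011 at lactation day 7 and 787, 602 and 726 at involution day 1 (-1.67 ± 0.24, adjusted p = 7.46e-07). Acly, which splits citrate into the acetyl-CoA used for fatty acids, read 4101, 4455 and 4598 at lactation day 7 and 743, 682 and 820.1 at involution day 1 (-2.55 ± 0.48, adjusted p = 5.72e-05), and Slc25a1, which carries that citrate out of mitochondria, fell 7.89-fold (-2.98 ± 0.51, adjusted p = 1.51e-05). Pcx, pyruvate carboxylase, fell (-2.19 ± 0.31, adjusted p = 4.71e-07). In the citrate cycle and pyruvate list 3 of 30 rose and 10 fell (median -0.20), and in glycolysis, called about as often as all genes, 3 of 43 rose and 8 fell (median -0.08): the glucose transporter Slc2a1 (-1.78 ± 0.42, adjusted p = 0.00119), hexokinase Hk2 (-1.44 ± 0.31, adjusted p = 0.000329), Pfkl (-1.35 ± 0.27, adjusted p = 0.000144) and Aldoc (-2.87 ± 0.32, adjusted p = 2.79e-09) fell. The lipid synthesis list had 0 rises and 20 falls among 32 (median -1.39), led by Elovl5, a fatty acid elongase, with 4989, 5440.2 and 5464 at lactation day 7 and 571, 476 and 480.4 at involution day 1 (-3.38 ± 0.21, adjusted p = 4.38e-16). Genes of the fat droplet and its fatty acids also fell: G0s2, which inhibits the main triglyceride lipase, read 2642, 2907 and 2439 at lactation day 7 and 86.8, 222 and 133 at involution day 1 (-4.28 ± 0.35, adjusted p = 6.66e-13). Fabp3, a fatty acid binding protein, fell 8.23-fold (-3.04 ± 0.41, adjusted p = 1.59e-07) and Cidea, a lipid droplet protein, 3.56-fold (-1.83 ± 0.32, adjusted p = 1.73e-05). The G0s2 groups were far apart.

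Respiratory chain and ATP synthase genes fell by small steps. Of 63 tested none rose and 28 fell (median -0.54), spread over complexes I, III, IV and V. Uqcrq, a complex III subunit, read 4686, 4584 and 4218 at lactation day 7 and 1652, 1772 and 2164 at involution day 1 (-1.28 ± 0.16, adjusted p = 3.82e-08). Cox6a1, of complex IV, read 5506, 4861 and 4699.8 at lactation day 7 and 2449, 2004 and 2510 at involution day 1 (-1.12 ± 0.16, adjusted p = 3.68e-07), and Ndufb8, of complex I, read 1624, 1655 and 1496 at lactation day 7 and 551, 618 and 644 at involution day 1 (-1.40 ± 0.21, adjusted p = 1.73e-06). None of these 3 genes' groups overlapped. Skeletal muscle, a tissue rich in mitochondria, was unequal between the glands. The summed signal of 4 muscle markers ran from 192 to 827 in the lactation mice and from 49.8 to 200 in the involution mice, with no muscle gene called. With that sum as a covariate, 29 respiratory genes fell and 0 rose, and fatty acid oxidation had 10 rises and 3 falls. Without lactation day 7 mouse A, the lactation gland with the lowest muscle sum (192), 21 respiratory genes fell. Without lactation mouse B or involution mouse A 20 fell. The muscle sum was mostly lower in the involution mice, and the part of muscle in these counts was not tested.

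Amino acid, polyamine and one-carbon genes fell more often than they rose, and 3 of 43 rose and 17 fell (median -0.37). Odc1, the first enzyme of polyamine synthesis, read 969, 799 and 869.8 at lactation day 7 and 99.7, 169.7 and 118 at involution day 1 (-2.80 ± 0.24, adjusted p = 3.36e-12). Sat1, which marks polyamines for breakdown or export, read 515, 281 and 306 at lactation day 7 and 2526, 1776 and 1874 at involution day 1, the opposite direction (2.52 ± 0.39, adjusted p = 2.61e-06). The 2 arginases also parted: Arg2 fell (-2.50 ± 0.42, adjusted p = 1.31e-05), while Arg1 was at the floor in all lactation mice and read 38.4, 33.6 and 80.3, at least 5-fold higher (adjusted p = 0.000279). Gldc, of glycine breakdown, fell 13.1-fold (-3.71 ± 0.44, adjusted p = 9.64e-09) and Gnmt, which disposes of methyl groups, 14-fold (-3.81 ± 0.37, adjusted p = 5.56e-11). Aldh18a1, of proline synthesis, fell 4.34-fold (-2.12 ± 0.37, adjusted p = 1.75e-05). Among amino acid, urea, polyamine and one-carbon metabolism, the 3 rises were 5 with array weights.

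Transporters of the secreting cell lost signal quickly. Slc34a2, the sodium-phosphate cotransporter of the alveolar membrane, had the largest fall of any called gene with 1 symbol, with 3581, 3799 and 4883 at lactation day 7 and 32.8, 161 and 243 at involution day 1. It fell 37.2-fold (-5.22 ± 0.50, adjusted p = 4.23e-11). Slc30a4, which loads zinc into milk, fell 3.65-fold (-1.87 ± 0.24, adjusted p = 6.73e-08), and Slc38a2, an amino acid transporter, 4.29-fold (-2.10 ± 0.24, adjusted p = 5.97e-09). In all, 9 of 107 rose and 25 fell (median -0.36) among solute carriers, 31.8% called against 26.9% of all genes. Atp2b2, the calcium pump of the alveolar membrane that supplies milk calcium, read 196, 178 and 152 at lactation day 7 and 9.4, 9.4 and 14 at involution day 1. No involution mouse came near the lactation mice (-4.02 ± 0.28, adjusted p = 8.76e-15). Folr1, a folate receptor, fell 3.66-fold (-1.87 ± 0.46, adjusted p = 0.00179). Slc12a2, a sodium, potassium and chloride cotransporter, was one of the rises, with 149, 102 and 119.6 at lactation day 7 and 687, 612 and 458 at involution day 1 (2.24 ± 0.40, adjusted p = 2.66e-05). Impdh1, which makes guanine nucleotides, read 297, 369.9 and 138 at lactation day 7 and 9.4, 9.4 and 12.7 at involution day 1, with 2 involution mice at the floor (-4.57 ± 0.37, adjusted p = 5.86e-13). In the metal and heme list, called about as often as all genes, 6 of 30 rose and 2 fell (median 0.26): metallothionein Mt1 rose 3.26-fold (1.71 ± 0.31, adjusted p = 3.3e-05), Hmox1, which degrades heme, 2.53-fold (1.34 ± 0.29, adjusted p = 0.000492), and Cp, ceruloplasmin, 4.2-fold (2.07 ± 0.24, adjusted p = 6.93e-09). Among antioxidant and glutathione enzymes 8 of 47 rose and 3 fell (median 0.05), 23.4% called against 26.9% of all genes. Slc34a2 differed by -4.35 (log2) without involution day 1 mouse A. Among iron, copper, zinc and heme, the 2 falls were 1 without involution day 1 mouse B or lactation day 7 mouse A, B or C. They were 1 after quantile normalization, without the filter or with the muscle covariate. Among antioxidant and glutathione enzymes, the 3 falls were 5 in the fit on the 6 arrays alone or with array weights.

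**Figure D4:**
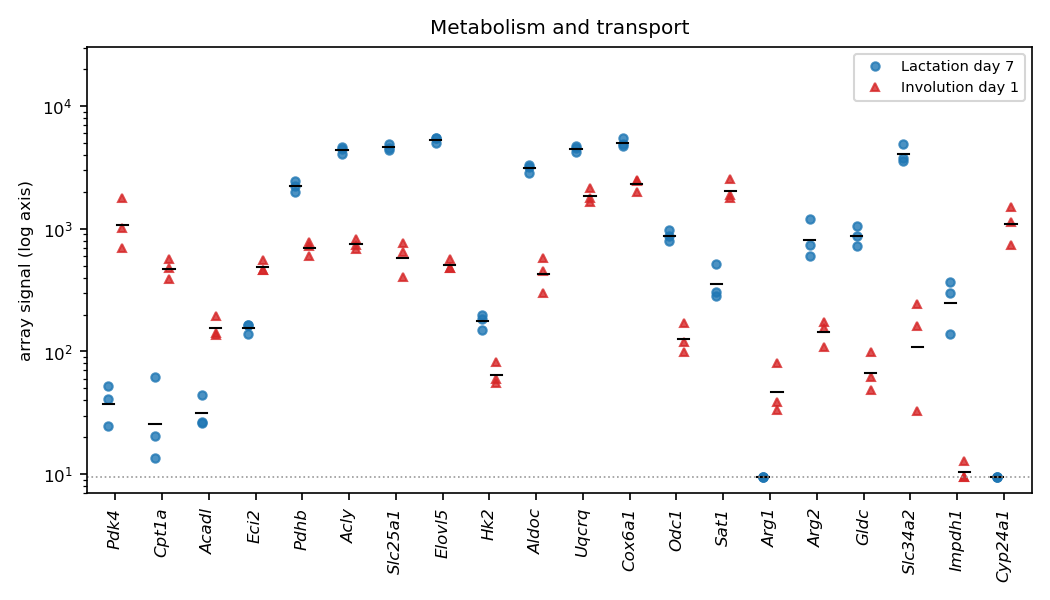
Array signals on a log axis for 20 metabolic and transport genes, with the 3 lactation day 7 mice as blue circles, the 3 involution day 1 mice as red triangles and the geometric mean of each group as a black line; the dotted line is the floor of 9.4. Pdk4, Cpt1a and Sat1 rose while Acly, Elovl5, Odc1 and Slc34a2 fell, and Arg1 and Cyp24a1 were at the floor in all lactation mice.

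Some genes of cell death, of cell cycle arrest and of survival rose. Cdkn1a, the cyclin-dependent kinase inhibitor p21, read 38.5, 9.4 and 17.3 at lactation day 7 and 205, 248 and 205 at involution day 1. Lactation mouse A was the highest of its group and far under the involution mice (3.57 ± 0.49, adjusted p = 2.1e-07). Rb1, the retinoblastoma gene that holds cells out of division, rose 10.4-fold (3.38 ± 0.32, adjusted p = 3.88e-11), Gadd45a, a stress and DNA damage gene, 7.09-fold (2.83 ± 0.34, adjusted p = 9.02e-09), and Bik, a killer protein of the BCL2 family, 6.65-fold (2.73 ± 0.45, adjusted p = 8.96e-06). Casp1, the caspase of inflammasomes, rose (1.86 ± 0.42, adjusted p = 0.000723), and so did Tnfrsf1a, the TNF receptor (1.60 ± 0.32, adjusted p = 0.000186). A second probe set of Tnfrsf1a was not called (means 38.0 and 32.4, -0.23). The survival gene Bcl2l1 read 167, 168 and 112 at lactation day 7 and 263, 312 and 252 at involution day 1 and rose as well (0.90 ± 0.21, adjusted p = 0.00105). In this list 15 of 43 rose and 3 fell (median 0.06), 41.9% called against 26.9% of all genes. Among cyclins, CDK inhibitors and replication genes 8 of 39 rose and 4 fell (median 0.01, 30.8% called), with Ccnd1, cyclin D1, lower (-1.46 ± 0.26, adjusted p = 2.76e-05). Mki67, a marker of dividing cells, fell (-2.33 ± 0.44, adjusted p = 6.64e-05), whereas Mcm4 (1.35 ± 0.32, adjusted p = 0.00131) and Rrm1 (1.59 ± 0.52, adjusted p = 0.0178), which serve DNA replication, rose. Second probe sets of Mki67 (-0.75) and Ccnd1 (-0.94) were not called, and a second probe set of Rb1 gave 1.70. Mcm4 was no longer called without lactation day 7 mouse A (adjusted p = 0.0504). Rrm1 was no longer called without involution day 1 mouse A or B or lactation day 7 mouse B or C (adjusted p = 0.162, 0.0594, 0.0542 and 0.0682). Among BCL2 family, caspases and death receptors, the 15 rises were 8 in the fit on the 6 arrays alone and the 3 falls were 5 without involution day 1 mouse B, 5 with the beta-actin covariate and 6 with array weights. Among cyclins, CDK inhibitors and DNA replication, the 8 rises were 4 without involution day 1 mouse A, 5 without lactation day 7 mouse B or C and 3 in the fit on the 6 arrays alone and the 4 falls were 2 without involution day 1 mouse B or lactation day 7 mouse A.

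Lysosome and autophagy genes rose more often than they fell, and 17 of 42 rose and 4 fell (median 0.43). Scarb2, a lysosomal membrane protein, read 78.4, 74.5 and 89.4 at lactation day 7 and 518, 373 and 290.1 at involution day 1 (2.25 ± 0.20, adjusted p = 9.77e-12), and Lamp2, another, rose 3.06-fold (1.61 ± 0.22, adjusted p = 2.98e-07). Ctsl, the protease cathepsin L, read 1039.6, 859 and 907 at lactation day 7 and 3033, 2876 and 2296 at involution day 1 (1.54 ± 0.19, adjusted p = 1.92e-08). Sqstm1, the autophagy receptor p62, read 552, 378 and 344 at lactation day 7 and 1638, 1268 and 1351 at involution day 1, with no overlap (1.76 ± 0.15, adjusted p = 1.36e-12). Among metalloproteinases, the plasminogen system and protease inhibitors 10 of 52 rose and 4 fell (median -0.19), called as often as all genes (26.9%). Of these, Serpinb5, the epithelial serpin maspin, rose 8.59-fold (3.10 ± 0.31, adjusted p = 1.66e-10) and Serpinb6a 6.16-fold (2.62 ± 0.26, adjusted p = 1.66e-10). Of heat shock and unfolded protein genes 11 of 47 rose and 4 fell (median 0.22), 31.9% called against 26.9% of all genes. The chaperone Hsp90aa1 was higher (1.59 ± 0.30, adjusted p = 6.22e-05). Among heat shock, unfolded protein and stress, the 4 falls were 1 without involution day 1 mouse B or C, 2 without lactation day 7 mouse B and 2 after median scaling or in the fit on the 6 arrays alone.

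Several chemokines, cytokine receptors and acute phase genes rose on the first day. Ccl2, which attracts monocytes, read 15.4, 9.4 and 9.4 at lactation day 7 and 97, 87.4 and 81.1 at involution day 1 (2.99 ± 0.33, adjusted p = 1.75e-09), and Cxcl1, which attracts neutrophils, read 31.6, 52.2 and 25.4 at lactation day 7 and 179.5, 147 and 445 at involution day 1, with involution mouse C the highest (2.71 ± 0.39, adjusted p = 7.53e-07). Ccl9 rose 5.53-fold (2.47 ± 0.41, adjusted p = 9.41e-06). Receptor chains rose too, among them Ifnar1 (2.12 ± 0.28, adjusted p = 1.23e-07) and Ifngr2 (2.48 ± 0.51, adjusted p = 0.000216) of the interferon receptors. Of cytokines, chemokines and their receptors 13 of 57 rose and 2 fell (median 0.04), called about as often as all genes, and of 14 acute phase genes 8 rose and 1 fell (median 1.43). Orm2, an acute phase glycoprotein, rose 14.1-fold (3.81 ± 0.56, adjusted p = 9.16e-07), and Cd14, the co-receptor for bacterial endotoxin, 5.46-fold (2.45 ± 0.29, adjusted p = 6.93e-09). Ltf, the milk iron-binding protein lactoferrin, rose by less (0.99 ± 0.33, adjusted p = 0.0191). In the macrophage list Cd68 rose (1.35 ± 0.31, adjusted p = 0.000913) and the other 4 of 5 tested did not pass, with a summed signal of 281 to 372 in the lactation mice and 429 to 623 in the involution mice. None of the 2 neutrophil, 3 T cell, 4 B and plasma cell and 5 endothelial markers tested was called. Ltf was no longer called without involution day 1 mouse B or lactation day 7 mouse C (adjusted p = 0.053 and 0.0546). Among cytokines, chemokines and their receptors, the 2 falls were 1 without involution day 1 mouse A or lactation day 7 mouse B or C and 1 without the filter.

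The most abundant milk protein genes were not called on day 1. Csn2, beta-casein, read 9447, 9007 and 8765 at lactation day 7 and 4190.2, 5070.2 and 4944 at involution day 1, and Wap, whey acidic protein, read 15868, 15028 and 15270.2 at lactation day 7 and 8488, 10452 and 9845 at involution day 1. In both the groups did not overlap, yet neither was called in the fit over all 54 arrays (-0.94 ± 0.67, adjusted p = 0.323 for Csn2 and -0.69 ± 0.78, adjusted p = 0.565 for Wap), whose standard error pools the spread of all 18 time points. After quantile normalization the difference of Wap was 0.03. In a fit on the 6 arrays alone both passed (-0.94 ± 0.13, adjusted p = 0.0048 for Csn2 and -0.69 ± 0.14, adjusted p = 0.021 for Wap), as did Lalba (-1.64 ± 0.33, adjusted p = 0.018) and Elf5 (-0.65 ± 0.14, adjusted p = 0.022). Of the milk list 1 of 20 rose and 5 fell (median -0.82), 30.0% called against 26.9% of all genes. Genes of the secretory machinery fell too: of those for ER translocation, folding and vesicle coats 1 of 49 rose and 17 fell (median -0.44), such as Lman1, a cargo receptor (-1.33 ± 0.15, adjusted p = 2.05e-09), and Ssr1, of the translocon (-1.28 ± 0.23, adjusted p = 3.77e-05). Fkbp11, an ER folding enzyme, read 3045, 3504 and 2931 at lactation day 7 and 274, 402 and 324 at involution day 1 (-3.26 ± 0.26, adjusted p = 5.07e-13). Of cytosolic ribosomal protein genes 1 of 27 rose and 14 fell (median -0.39), by small amounts, as for Rps28 (-0.80 ± 0.15, adjusted p = 5.13e-05). After quantile normalization 1 ribosomal gene rose and 1 fell (median -0.10). Among milk proteins and milk fat globule, the 5 falls were 15 in the fit on the 6 arrays alone. Among cytosolic ribosomal proteins, the 14 falls were 8 without involution day 1 mouse A or lactation day 7 mouse A, 1 after quantile normalization and 9 after median scaling.

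Among markers of the tissue's cell types, 5 of 9 luminal, 2 of 6 basal and 4 of 6 fibroblast markers rose, and none of any list fell. Adipoq, the adipocyte hormone, read 635, 491 and 634 at lactation day 7 and 813, 494 and 668 at involution day 1 with overlapping groups, and none of 6 adipocyte markers was called (0.15 ± 0.22, adjusted p = 0.684). The fibroblast sum ran from 1520 to 2170 in the lactation mice and from 1840 to 3300 in the involution mice, and Col1a1 read 211, 519.6 and 313 at lactation day 7 and 806, 448 and 656 at involution day 1, which overlap (0.93 ± 0.27, adjusted p = 0.00922). The 4 muscle markers had a median of -2.10 with 0 called, and the 2 erythroid markers were not called (sums of 2090 to 2980 and 1390 to 2080). Col1a1 was no longer called without involution day 1 mouse A or lactation day 7 mouse A (adjusted p = 0.0853 and 0.123). Among basal and myoepithelial cells, the 2 rises were 0 without involution day 1 mouse A and 1 without involution day 1 mouse C or lactation day 7 mouse A, B or C. They were 1 in the fit on the 6 arrays alone or with the muscle covariate. Among fibroblasts, the 4 rises were 2 without involution day 1 mouse A or lactation day 7 mouse A and 2 in the fit on the 6 arrays alone.

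Some first-day changes had turned partway back by the second day. Genes named for a large day 1 difference lean toward a return when the same day 1 arrays are used again. The size of that lean was not tested. Involution day 2 was compared with day 1, which shares the day 1 arrays with the main comparison, and 554 genes (7.58%) were called, 317 higher (4.34%) and 237 lower (3.24%). Leaving out 1 array gave 218 calls without day 2 mouse B, 294 without day 2 mouse A, 309 without day 1 mouse C, 331 without day 1 mouse B and 387 or 530 without the others. Cyp24a1 read 192, 295 and 335 at involution day 2 and fell from its day 1 level (-2.02 ± 0.27, adjusted p = 1.81e-06). Wfdc12 read 331, 246 and 725 at involution day 2, with every day 2 mouse below every day 1 mouse, but was not called (-2.55 ± 0.97, adjusted p = 0.102). Klf6 (-1.20 ± 0.31, adjusted p = 0.0107), Bhlhe40 (-1.17 ± 0.33, adjusted p = 0.0224), Stmn1 (-1.40 ± 0.32, adjusted p = 0.00396), Ccl2 (-1.51 ± 0.33, adjusted p = 0.00296) and Cxcl1 (-1.85 ± 0.39, adjusted p = 0.00235) also fell partway from their day 1 level. Impdh1 rose back to 169, 179.5 and 152 at involution day 2 (4.00 ± 0.37, adjusted p = 8.36e-10), and Srebf1 rose partway back (1.12 ± 0.29, adjusted p = 0.0114). Klf6 was no longer called without involution day 2 mouse A or B or involution day 1 mouse A or C (adjusted p = 0.136, 0.0746, 0.0784 and 0.0597). Bhlhe40 was no longer called without involution day 2 mouse A or B or involution day 1 mouse A or C (adjusted p = 0.158, 0.106, 0.153 and 0.0692). Srebf1 was no longer called without involution day 2 mouse B or involution day 1 mouse A (adjusted p = 0.0788 and 0.0519).

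Cebpb and Adipoq, not called on day 1, rose on day 2, and some changes went further. Cebpb read 1009.9, 1027 and 1148 at involution day 2, all above the lactation day 7 and day 1 mice (1.25 ± 0.28, adjusted p = 0.00317). Col1a1 rose (1.32 ± 0.27, adjusted p = 0.00169), and Adipoq did too (1.21 ± 0.22, adjusted p = 0.000389). Egf fell further, with 9.4, 9.4 and 36.2 at involution day 2 (-2.86 ± 0.48, adjusted p = 0.000102), and Slc34a2 fell further (-1.86 ± 0.50, adjusted p = 0.0139). Socs3 (0.29 ± 0.33, adjusted p = 0.677), Pdk4 (0.13 ± 0.48, adjusted p = 0.916), Cpt1a (0.13 ± 0.31, adjusted p = 0.865), Kit (-0.65 ± 0.39, adjusted p = 0.359), Tsc22d1 (0.06 ± 0.24, adjusted p = 0.921) and Elovl5 (-0.13 ± 0.21, adjusted p = 0.788) were not called between these days. By day 20 the mean of Cyp24a1 was 13.6 and that of Rnase1 10.6, near the floor, while Kit stood at 111 and Cpt1a at 423 against 11.9 and 25.8 at lactation day 7. Slc34a2 was no longer called without involution day 2 mouse A or B or involution day 1 mouse B or C (adjusted p = 0.0767, 0.142, 0.0891 and 0.176). Egf moved to -3.51 without involution day 2 mouse C. Slc34a2 moved to -2.73 without involution day 1 mouse A.

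**Figure D5:**
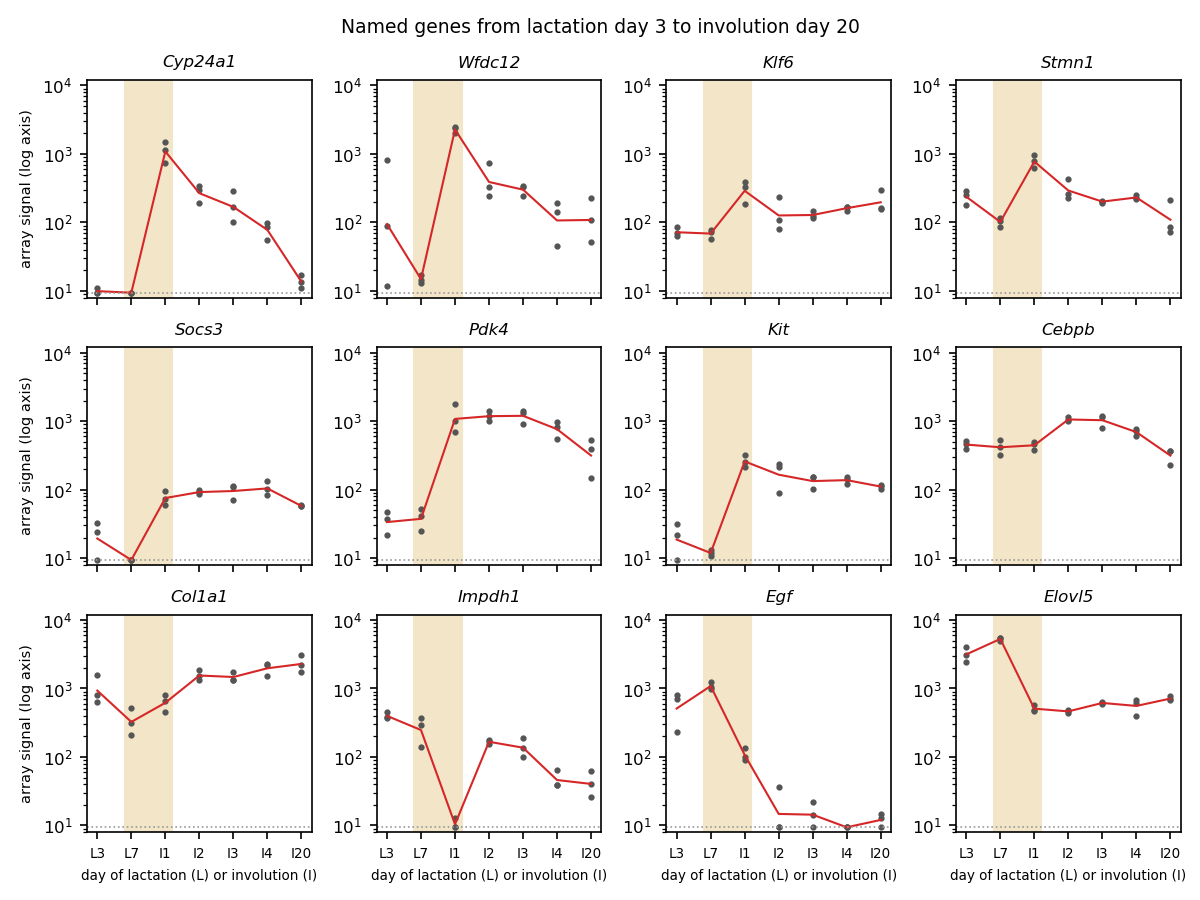
Array signals of 12 genes on a log axis from lactation day 3 to involution day 20, 1 dot per mouse (n = 3 per time point) and a red line through the geometric means; the shaded band holds the 2 time points compared and the dotted line is the floor of 9.4. Cyp24a1 and Wfdc12 peak at involution day 1, Impdh1 dips there, Cebpb is first higher at day 2, and Elovl5 stays near its day 1 level. The mean of Col1a1 is higher at day 1, where its mice overlap those of lactation day 7, and again at day 2.

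Lactation day 7 against day 3, which shares the day 7 arrays, shows what moved before weaning, with 97 rises (1.33%) and 116 falls (1.59%). The 213 calls were 107 without day 3 mouse A and 130 without day 7 mouse C. Elovl5 (0.75 ± 0.21, adjusted p = 0.043), Egf (1.09 ± 0.48, adjusted p = 0.246) and Slc34a2 (0.57 ± 0.50, adjusted p = 0.658) had means of 3146, 509.7 and 2736 at day 3 and 5293, 1086 and 4049.9 at day 7. Col1a1 fell over these days (-1.52 ± 0.27, adjusted p = 0.000546), and Stmn1 fell too (-1.22 ± 0.32, adjusted p = 0.0224), so both were lower just before weaning than at lactation day 3. Wfdc12 had a mean of 94.4 at day 3, with signals of 814, 11.8 and 87.7 in the 3 mice (-2.67 ± 0.97, adjusted p = 0.139). Cyp24a1, Rnase1, Pdk4 and Kit had day 3 means of 9.91, 9.4, 33.6 and 18.7. Elovl5 was no longer called without lactation day 7 mouse A, B or C or lactation day 3 mouse A or B (adjusted p = 0.0741, 0.106, 0.114, 0.302 and 0.0844). Stmn1 was no longer called without lactation day 7 mouse B or C or lactation day 3 mouse A or C (adjusted p = 0.0981, 0.0584, 0.145 and 0.0632). Wfdc12 was called without lactation day 3 mouse B (adjusted p = 0.00916).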

How the data were processed

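RNA from 54 glands (18 time points, 3 mice each) was read on 1-colour Affymetrix arrays. The deposited values are MAS5 signal intensities on a linear scale, per the submitters' processing notes (version not given in the sources used here), and the 2% trimmed means of the arrays ran from 100.05 to 100.07. Arrays were grouped by title. Signals were floored at 9.4 (the 25th percentile of the table) and taken to log2. Of 12488 probe sets, 66 controls were left out, and 8640 were kept because the 3 arrays of some time point all exceeded a signal of 22.8 (the 40th percentile). Each gene took its probe set of highest mean, which gave 7311 genes: 6441 named by exactly 1 symbol in GEO's platform annotation, updated through RefSeq, and 870 probe sets without 1 symbol. A linear model with 18 group means was fitted to all 54 arrays with limma 3.58.1 in R 4.3.3 (lmFit and eBayes with an intensity trend, 36 residual degrees of freedom), with Benjamini-Hochberg adjustment over the 7311 genes. The text names a part of the genes given by a fixed rule: the 20 largest rises and the 20 largest falls without overlap, the 6 called members of each list with the largest difference, and a fixed set, of which Bax, Igfbp5 and Lif are not analysed here. Members, lists and fixed genes were chosen with earlier results of these data known. A fold against a group wholly at the floor is given as at least the ratio of the other group's mean to the floor. A mean is a geometric mean. The 3 mice per group, and not counts, limit the precision. The alternatives were other floors, scalings, filters and fits, covariates for RNA quality, and leaving out each array; the Gapdh and muscle covariates were added after seeing the data. The fit was tested on simulated data. Tables were made with pandas 2.3.3 and numpy 2.4.6 and plots with matplotlib 3.10.9, in Python 3.11.15.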

Additional observations from a re-analysis of the deposited data

How the results depend on the processing

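The count of 1969 stayed within 1.5 times under each alternative, from 1369 without involution day 1 mouse A to 2539 over all non-control probe sets. Leaving out 1 array gave 1369 to 1820 calls, and a fit on the 6 arrays alone 1563. Involution day 2 against day 1 (554) gave 252 calls on its own 6 arrays, 1265 with array weights and 218 to 530 without 1 array. Lactation day 7 against day 3 (213) gave 7 on its own 6 arrays, 334 without the filter, 428 over all non-control probe sets and 107 to 228 without 1 array.

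Of 167 called genes named in the text, 145 kept their call under all 20 alternatives and none reversed. The fit on the 6 arrays alone lost 16 of them (Casp1, Col1a1, Ddit3, Dusp6, Hes5, Ier3, Igfbp3, Jun, Krt8, Map4k4, Mcm4, Mnt, Nfkbia, Rrm1, Saa2 and Socs2). Krt8 was also lost without the filter and with the Gapdh and muscle covariates, Jun with the Gapdh and muscle covariates, Rrm1 with the higher floor and array weights, Igfbp3 and Mnt with the higher floor, Ltf with the muscle covariate, and Plk3 and Rps28 after quantile normalization. Of 13 genes not called, Elf5 passed with the beta-actin or the muscle covariate (adjusted p = 0.029 and 0.0368), Lalba with the higher floor (0.0155), Fos with array weights (0.0123), Myc without the floor (0.0489) and with array weights (0.0127), and Cish after quantile normalization (0.0484). The sign turned, from values that were not called, for Wap after quantile normalization (0.03). Leaving out 1 array also turned it for Adipoq (from -0.02 to 0.34), Cdh1 (-0.04 to 0.23), Cebpb (-0.1 to 0.27), Junb (-0.04 to 0.27) and Sgk1 (-1.3 to 0.46, the positive value without lactation day 7 mouse A). Between involution days 1 and 2 it turned for Cpt1a (-0.01 to 0.26), Pdk4 (-0.19 to 0.5) and Tsc22d1 (-0.03 to 0.21), and for Tsc22d1 with the Gapdh covariate (-0.05). The cause was not tested.

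The letters A to C do not name shared animals. Same-letter deviations from the group means correlated at 0.07, 0.028 and 0.032, so the letters were not taken as pairs. The letter as a replicate block gave 2005 calls, 1953 of them among the 1969, with 587 for involution day 2 against day 1 and 236 for lactation day 7 against day 3. Genes near the floor have only a bound on their fall or rise.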

Other observations

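Some secreted proteins and enzymes outside the groups described above also changed on the first day. Wfdc2, a relative of Wfdc12, rose 6.3-fold (2.66 ± 0.46, adjusted p = 1.63e-05), with signals of 9.6, 9.4 and 9.4 at lactation day 7 and 82.8, 72.3 and 35.5 at involution day 1. Saa3, a serum amyloid gene, rose 11.5-fold (3.53 ± 0.43, adjusted p = 1.52e-08). Cck, the hormone cholecystokinin, went the other way, with 685, 1029.7 and 933 at lactation day 7 and 172, 123 and 93.6 at involution day 1 (-2.79 ± 0.47, adjusted p = 9.59e-06). Pigr, which carries antibodies into milk, fell 2.27-fold (-1.18 ± 0.24, adjusted p = 0.000233). Gstt1, a glutathione transferase, rose 3.07-fold (1.62 ± 0.25, adjusted p = 1.82e-06), while Prdx4, a peroxiredoxin of the ER, fell 4.26-fold (-2.09 ± 0.26, adjusted p = 3.82e-08). Saa3 differed by 2.92 (log2) without lactation day 7 mouse C.

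Enzymes of sterol and fatty acid synthesis fell side by side. Mvd, of the mevalonate pathway, read 157, 309.8 and 182 at lactation day 7 and 31, 13.2 and 23.8 at involution day 1 (-3.27 ± 0.60, adjusted p = 4.45e-05), and Hsd17b7, of cholesterol synthesis, fell 5.63-fold (-2.49 ± 0.28, adjusted p = 2.02e-09). The desaturases Fads1 and Scd2 fell 7.02-fold (-2.81 ± 0.20, adjusted p = 1.75e-14) and 6.56-fold (-2.71 ± 0.34, adjusted p = 3.43e-08). Slc50a1, a sugar transporter, read 1119, 736 and 901 at lactation day 7 and 196, 209.9 and 295 at involution day 1 (-1.98 ± 0.18, adjusted p = 2.69e-11). None of the groups printed here overlapped.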
